A study of Homo sapiens with 10 samples.

Results

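The genes described here encode the pyruvate dehydrogenase complex (PDHA1, PDHB, DLAT and DLD) and 5 enzymes of the tricarboxylic acid (TCA) cycle (CS, SUCLA2, SUCLG1, FH and MDH2). They were chosen by gene symbol. Of these 9 genes, 8 had a probe set under their symbol, among 17687 genes with a value. FH, which encodes fumarase, had none in the annotation used here and is not analysed further.

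The pyruvate dehydrogenase complex sits in the mitochondrial matrix and turns pyruvate into acetyl-CoA, which joins glycolysis to the TCA cycle. Its E1 component (PDHA1 and PDHB) removes carbon dioxide with thiamine pyrophosphate, E2 (DLAT) passes the acetyl group on a lipoyl arm to coenzyme A, and E3 (DLD) reoxidises that arm. Kinases of the PDK family switch E1 off by phosphorylation and phosphatases switch it on again. Citrate synthase (CS) then brings acetyl-CoA into the cycle, succinyl-CoA synthetase (SUCLG1 with SUCLA2 or SUCLG2) makes succinate, fumarase (FH) makes malate, and malate dehydrogenase (MDH2) closes the cycle.

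The samples came from 2 established human prostate cancer lines, CWR22Rv1 and PC3, both castration-resistant. Their RNA was hybridised to 10 Clariom S arrays (Affymetrix), and values are on a log2 scale. The CWR22Rv1 time course held 1 array each of cells starved of arginine for 0 h, 24 h and 48 h, where the 0 h cells had spent 24 h in control medium. The CWR22Rv1 DMKG experiment held 1 array each of cells starved for 48 h with dimethyl α-ketoglutarate (DMKG, a membrane-permeable form of α-ketoglutarate), cells starved for 48 h without it, and cells in control medium for 48 h. PC3 cells gave 2 arrays starved for 48 h and 2 arrays in control medium for 48 h. Starvation was in arginine-free RPMI with dialyzed serum, and control medium was the same with arginine at 200 mg/L. The labels give DMKG at 5 mM, whereas the methods give the same figure in micromolar. The 48 h array of the time course is therefore set against cells that had spent less time in their medium. No source used here says whether the arrays of a group came from separate cultures, so p-values cover array-to-array spread, which may be technical. That spread is pooled over all arrays, so CWR22Rv1 p-values rest in large part on PC3 arrays.

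Features of the arrays bear on all results below. The PC3 markers read as a check of the cell lines (VIM, CAV1, CD44, AXL, TGFBR2, ITGA3 and KRT7) were above every CWR22Rv1 array on every PC3 array for 7 of 7 measured genes. Of the CWR22Rv1 markers, 4 of 6 measured genes were below every CWR22Rv1 array on every PC3 array. The control array of the time course stood apart from that of the DMKG experiment. All 7 amino acid stress genes read as a check (ASNS, CHAC1, DDIT3, TRIB3, SESN2, ATF3 and PSAT1) were higher on it after quantile normalization, by 0.21 to 5.81, against a median gap of -0.03 over all genes. All 6 measured CWR22Rv1 markers were lower on it, with gaps of -2.77 to -1.27. The median change of the 7 stress genes at 48 h was 0.64 in the time course and 2.93 in the DMKG experiment. In the DMKG experiment, 2341 genes (13.2%) held the same value on all 3 arrays, but none of the members did. The part of these features in the results was not tested.

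After 48 h without arginine, PDHB was lower in both cell lines, DLAT was lower in CWR22Rv1 cells and SUCLG1 was lower in PC3 cells. PDHB fell 2.75-fold in CWR22Rv1 cells and 2.07-fold in PC3 cells. In CWR22Rv1 cells, 2 of 8 members were called lower at an adjusted p under 0.05 (limma), and 3.74% of all genes were called lower in that comparison. In PC3 cells, 2 of 8 members were called lower, against 10.0% of all genes. No member was called higher, against 3.2% of all genes in CWR22Rv1 and 9.59% in PC3 cells. The median difference over the members was -0.35 in CWR22Rv1 and -0.29 in PC3 cells, beside 0.02 over all genes in each line. The starved value was below the control value for 8 of 8 members in both CWR22Rv1 experiments, as for 24.5% of all genes, and both PC3 starved arrays were below both control arrays for 7 of 8 members, as for 28.6% of all genes. Both held for 7 of 8 members and 12.0% of all genes. In the DMKG experiment 3821 genes (21.6%), none of them members, held the same value on the starved and control arrays. Such genes cannot count as lower, which reduces the shares of 24.5% and 12.0%. The arrays read bulk RNA, so less RNA of a gene per cell and fewer cells that express it cannot be told apart.

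**Figure D1:**
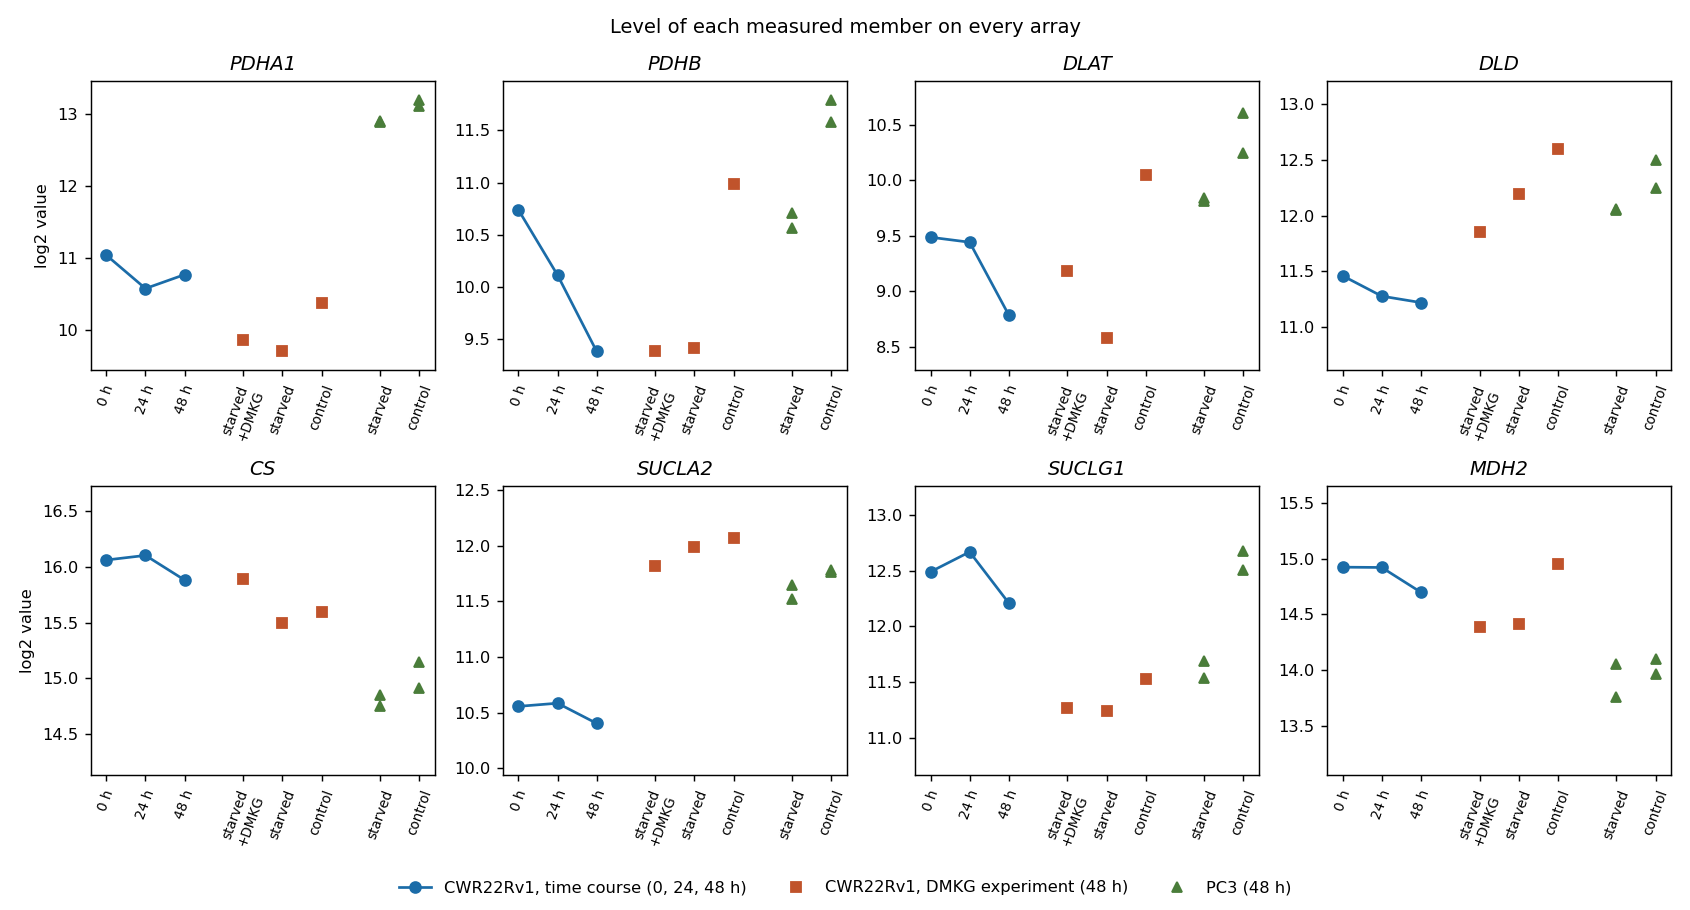
Log2 value (vertical axis) of the 8 measured members on each of the 10 arrays. Lines join the 0 h, 24 h and 48 h arrays of the CWR22Rv1 time course, squares are the DMKG experiment and triangles PC3 cells. PDHB is lower on every starved array than on the control arrays of its set, and SUCLG1 shows its widest starved to control gap in PC3 cells.

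The promoter windows of the 3 genes that were called lower are printed here, with 250 bases before and 50 after the RefSeq start on GRCh38.p14, 5′ to 3′ on the gene's own strand. PDHB lies at chr3:58427630-58433832 (window chr3:58433783-58434082, minus strand), DLAT at chr11:112025408-112064404 (window chr11:112025158-112025457, plus strand) and SUCLG1 at chr2:84423528-84459280 (window chr2:84459231-84459530, minus strand). Capitals mark the only match found in these 3 windows to the motifs searched.
PDHB: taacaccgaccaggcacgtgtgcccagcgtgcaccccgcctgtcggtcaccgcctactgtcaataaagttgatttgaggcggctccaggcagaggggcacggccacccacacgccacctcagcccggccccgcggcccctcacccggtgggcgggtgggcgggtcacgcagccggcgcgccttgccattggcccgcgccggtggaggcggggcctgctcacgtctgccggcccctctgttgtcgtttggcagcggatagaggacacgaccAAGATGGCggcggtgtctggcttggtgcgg
DLAT: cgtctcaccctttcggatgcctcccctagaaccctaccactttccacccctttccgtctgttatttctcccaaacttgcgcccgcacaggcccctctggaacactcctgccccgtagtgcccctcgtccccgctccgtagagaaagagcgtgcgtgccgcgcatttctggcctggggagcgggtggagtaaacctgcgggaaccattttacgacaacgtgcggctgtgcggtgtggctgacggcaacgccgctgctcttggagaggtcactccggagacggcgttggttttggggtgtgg
SUCLG1: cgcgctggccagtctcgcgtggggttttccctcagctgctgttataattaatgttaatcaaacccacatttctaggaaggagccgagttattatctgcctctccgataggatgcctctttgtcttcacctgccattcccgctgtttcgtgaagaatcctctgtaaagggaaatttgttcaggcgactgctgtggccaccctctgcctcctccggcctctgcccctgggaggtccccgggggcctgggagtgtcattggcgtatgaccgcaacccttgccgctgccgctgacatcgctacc
The motifs were NRF1 (GCGC, any base, then TGCGC), ETS (CCGGAAG), YY1 (AAGATGGC), the ERR element (TCAAGGTCA) and the ATF4 element (TGATGNAA), each on both strands. The PDHB window held YY1 at bases 21 to 28 after the start (the first transcribed base is 1), as did 2.89% of 35116 promoters. Outside these genes, the MDH2 window held ETS at 2 places (10.3% of promoters) and the SUCLA2 window held NRF1 (5.78%). No other member window held any of the 5 motifs, of which the ERR element occurs in 0.353% of promoters and the ATF4 element in 3.62%. GC content was 70.3% in the PDHB, 62.0% in the DLAT and 56.3% in the SUCLG1 window, with a median of 58.7% over all promoters.

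PDHB encodes the beta subunit of E1. In the time course it read 10.74 at 0 h, 10.11 at 24 h and 9.38 at 48 h. In the DMKG experiment it read 9.42 on the starved and 10.99 on the control array, and in PC3 cells 10.71 and 10.56 on the starved arrays, against 11.79 and 11.58 on the control arrays. Starved and control arrays did not overlap in any set, and 48 h was lower than 24 h. The fitted difference at 48 h was -1.46 ± 0.18 (SE) in CWR22Rv1 cells (95% interval -1.88 to -1.04, limma adjusted p = 0.00616), which leaves 36.3% of the control level. In PC3 cells it was -1.05 ± 0.18 (-1.47 to -0.63, limma adjusted p = 0.00598). The PC3 means were 10.64 ± 0.11 in starved and 11.69 ± 0.15 in control cells (SD, n = 2 each).

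DLAT encodes E2, the lipoylated acetyltransferase core. In the time course it read 9.49 at 0 h, 9.44 at 24 h and 8.79 at 48 h. On these single arrays nearly all of its fall came after 24 h. The fitted 24 h difference of DLAT was -0.24 with a 95% interval of -0.94 to 0.47, so the timing is uncertain. In the DMKG experiment DLAT read 8.58 on the starved and 10.05 on the control array. In PC3 cells it read 9.84 and 9.81 on the starved arrays, against 10.60 and 10.25 on the control arrays. The groups did not overlap in PC3 cells. The fitted difference was -1.08 ± 0.23 (SE) in CWR22Rv1 cells (limma adjusted p = 0.0323). It was -0.60 ± 0.23 in PC3 cells, which did not pass (limma adjusted p = 0.114). The differences within the CWR22Rv1 experiments were -0.70 in the time course and -1.47 in the DMKG experiment. After quantile normalization the control arrays were 0.69 apart for DLAT, higher in the DMKG experiment.

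The CWR22Rv1 calls of PDHB and DLAT were both lost without the starved or the control array of the DMKG experiment. Without its starved or its control array, PDHB was -1.35 (limma adjusted p = 0.0839) and DLAT -0.70 (limma adjusted p = 0.223), and 8 genes in all were called in that comparison. Without the control array of the time course, which stood apart in stress genes, PDHB was -1.57 and DLAT -1.47. Each of these fits leaves no repeat of the CWR22Rv1 comparison at 48 h, so its spread comes from PC3 arrays only. The DLAT call was also lost when any one of the 4 PC3 arrays was left out (limma adjusted p = 0.0513 to 0.0600), with its difference still at -1.08.

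PDHA1, the alpha subunit of E1 that carries the sites phosphorylated by the PDK kinases, lies at chrX:19343927-19361718. It read 11.04 at 0 h, 10.58 at 24 h and 10.77 at 48 h of the time course. It read 9.71 on the starved and 10.37 on the control array of the DMKG experiment, and 12.90 and 12.89 on the starved PC3 arrays, against 13.11 and 13.19 on the control PC3 arrays. All starved arrays were below the control arrays of their own set, with fitted differences of -0.47 ± 0.18 (SE) in CWR22Rv1 cells (limma adjusted p = 0.189) and -0.26 ± 0.18 in PC3 cells (limma adjusted p = 0.387). Neither passed. PDHB had the wider difference of the E1 genes in each set, with PDHB at -1.35 and PDHA1 at -0.27 in the time course, PDHB at -1.57 and PDHA1 at -0.67 in the DMKG experiment, and PDHB at -1.05 and PDHA1 at -0.26 in PC3 cells. The gap between these 2 genes was not tested.

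DLD, the flavoprotein E3 that this complex shares with other ketoacid dehydrogenases, lies at chr7:107891107-107921198. It read 11.46 at 0 h, 11.28 at 24 h and 11.22 at 48 h of the time course, and 12.20 on the starved and 12.60 on the control array of the DMKG experiment. In PC3 cells it read 12.06 on both starved arrays, against 12.50 and 12.25 on the control arrays. The direction was the same in every set, but the fitted differences were -0.32 in each line and did not pass (limma adjusted p = 0.388 in CWR22Rv1 and 0.275 in PC3 cells). Across the 4 core genes of the complex the median difference was -0.78 in CWR22Rv1 cells (2 of 4 called) and -0.46 in PC3 cells (1 of 4 called).

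**Figure D2:**
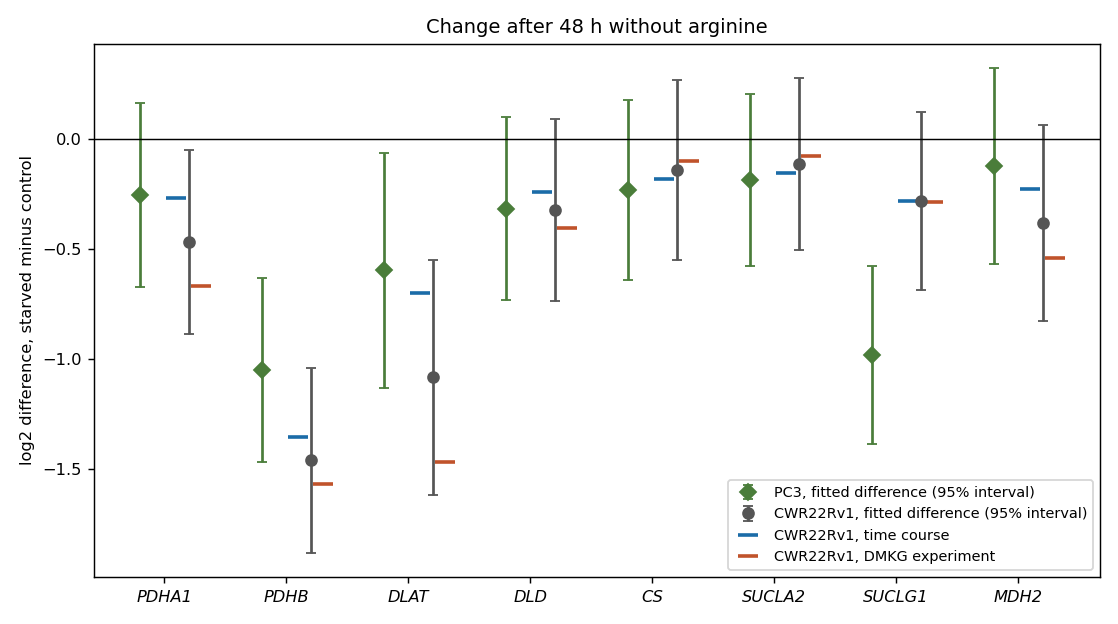
Log2 difference, starved minus control, at 48 h for each member. Diamonds (PC3 cells) and circles (CWR22Rv1 cells) are fitted differences with 95% intervals, and dashes are the plain differences in each CWR22Rv1 experiment. PDHB is near -1.05 in PC3 and -1.46 in CWR22Rv1 cells, and SUCLG1 is -0.98 in PC3 but -0.28 in CWR22Rv1 cells.

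Among the cycle enzymes, SUCLG1 was the member with a call. It encodes the alpha subunit of succinyl-CoA synthetase, which pairs with either beta subunit. In PC3 cells it read 11.69 and 11.54 on the starved arrays, against 12.68 and 12.51 on the control arrays. The groups were separate by 0.82 at the closest pair, and the fitted difference was -0.98 ± 0.18 (SE, 95% interval -1.39 to -0.58, limma adjusted p = 0.00679), a 1.98-fold fall. In CWR22Rv1 cells it read 12.49 at 0 h, 12.67 at 24 h and 12.21 at 48 h of the time course, and 11.24 on the starved and 11.53 on the control array of the DMKG experiment. These gave a fitted difference of -0.28 ± 0.18, which did not pass (limma adjusted p = 0.443). The PC3 call was lost when PC3 control replicate 1 (limma adjusted p = 0.0534) or PC3 starved replicate 2 (limma adjusted p = 0.0539) was left out.

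SUCLA2, the beta subunit of the ADP-forming enzyme, lies at chr13:47942656-48001273. It read 10.56, 10.58 and 10.40 at 0, 24 and 48 h, and 11.99 on the starved and 12.07 on the control array of the DMKG experiment. In PC3 cells it read 11.52 and 11.65 on the starved and 11.78 and 11.76 on the control arrays. Its fitted differences were -0.12 in CWR22Rv1 cells (limma adjusted p = 0.795) and -0.19 in PC3 cells (limma adjusted p = 0.514), with 95% intervals of -0.51 to 0.27 and -0.58 to 0.21. The other beta subunit, SUCLG2, forms the GTP-linked enzyme. Its differences of -0.82 in CWR22Rv1 and -0.80 in PC3 cells did not pass the test either, and it is named here after its values were seen.

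CS, which makes citrate from acetyl-CoA and oxaloacetate, lies at chr12:56271699-56300330. It read 16.06, 16.10 and 15.88 at 0, 24 and 48 h, and 15.50 on the starved and 15.60 on the control array of the DMKG experiment. In PC3 cells it read 14.75 and 14.85 on the starved arrays, against 15.15 and 14.92 on the control arrays. The closest PC3 pair was 0.07 apart, and the fitted differences of -0.14 in CWR22Rv1 cells (limma adjusted p = 0.755) and -0.23 in PC3 cells (limma adjusted p = 0.426) did not pass.

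MDH2, the mitochondrial malate dehydrogenase, lies at chr7:76048106-76067508. It read 14.92, 14.92 and 14.70 at 0, 24 and 48 h, and 14.41 on the starved and 14.96 on the control array of the DMKG experiment. It was the member whose PC3 groups overlapped, with 14.05 and 13.75 on the starved and 14.10 and 13.96 on the control arrays. The fitted differences were -0.38 in CWR22Rv1 cells (limma adjusted p = 0.330) and -0.12 in PC3 cells (limma adjusted p = 0.720). Over the 4 measured cycle enzymes the median difference was -0.21 in each line.

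At 24 h in CWR22Rv1 cells no gene of the 17687 and no member was called (0.0% of all genes, limma). At an unadjusted p under 0.05 there were 2169 genes, among them 2 members, PDHB (-0.68) and PDHA1 (-0.56). In the plain differences from the 0 h array, PDHB was at -0.62, PDHA1 at -0.46 and DLD at -0.18, while the others lay between -0.04 and 0.18. From 24 h to 48 h, PDHB changed by a further -0.73, DLAT by -0.65 and SUCLG1 by -0.46, whereas PDHA1 was 0.19 higher at 48 h than at 24 h. Each of these rests on 1 array per time.

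DMKG on top of starvation was compared within its own experiment, where the starved array enters both the starvation and the DMKG difference. DLAT read 9.18 with DMKG and 8.58 without, which leaves it 0.86 below the control value of 10.05. CS read 15.89 with DMKG and 15.50 without, and was thus above its control value of 15.60. PDHB read 9.39 with DMKG, against 9.42 without and 10.99 in control cells. PDHB thus stayed at its starved value, DLAT lay between starved and control, and CS lay above both. The other differences, DMKG minus starved, were 0.16 for PDHA1, 0.02 for SUCLG1, -0.02 for MDH2, -0.18 for SUCLA2 and -0.34 for DLD. The median over the members was -0.0008, beside 0.0000 over all genes. No gene was called (0.0%, limma), with 360 genes and 0 members at an unadjusted p under 0.05. The fitted DMKG difference of PDHB was -0.08 with a 95% interval of -0.63 to 0.47, and that of DLAT was 0.41 with an interval of -0.29 to 1.12.

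**Figure D3:**
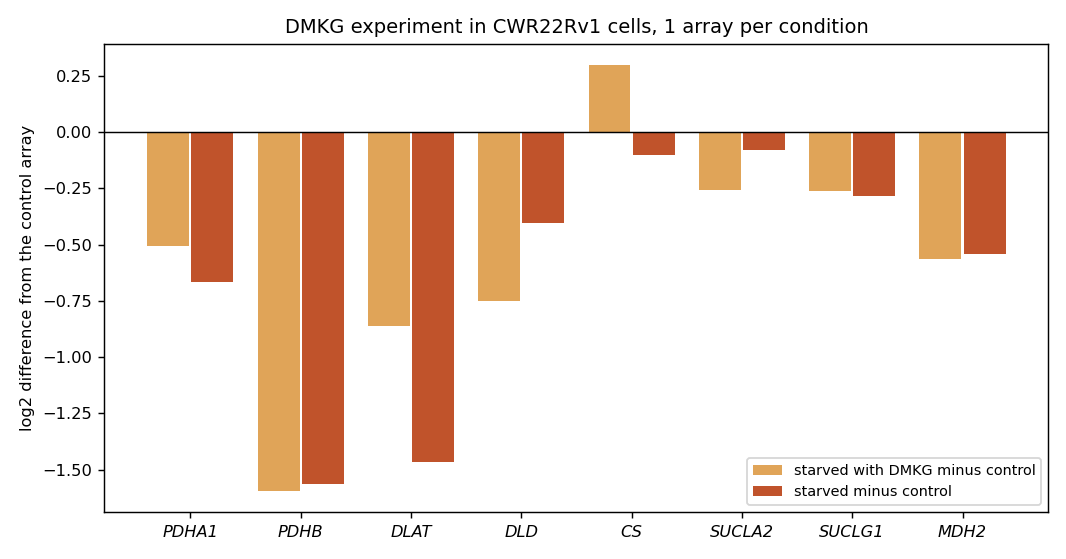
Log2 difference from the control array of the DMKG experiment for cells starved for 48 h with DMKG (light bars) and without it (dark bars), 1 array each. PDHB is at -1.59 with DMKG and -1.57 without, DLAT at -0.86 and -1.47, and CS at 0.30 and -0.10.

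The test of the difference between the 48 h responses, PC3 minus CWR22Rv1, called none of the 8 members, against 4.4% of all genes. At an unadjusted p under 0.05 it gave 1 member, SUCLG1, beside 3486 of the 17687 genes. SUCLG1 had a difference of -0.70 and a 95% interval of -1.27 to -0.13 (limma adjusted p = 0.166). The differences were 0.41 for PDHB (SE 0.26) and 0.49 for DLAT (95% interval -0.27 to 1.24). The DLAT interval also holds gaps as wide as the PC3 response of DLAT, so the data do not show that the lines responded alike.

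Levels between sets were read after quantile normalization over all arrays and are a description. Between control cells, PDHA1 averaged 12.78 in PC3 and 11.02 in CWR22Rv1 cells, MDH2 13.73 in PC3 and 15.05 in CWR22Rv1 cells, and CS 14.84 in PC3 and 15.84 in CWR22Rv1 cells. The other 5 members differed by -0.34 to 0.06 between the lines. The CWR22Rv1 controls were themselves apart. SUCLA2 was at 12.34 in the DMKG experiment and 10.82 in the time course, DLD at 12.86 in the DMKG experiment and 11.74 in the time course, and SUCLG1 at 11.80 in the DMKG experiment and 12.77 in the time course. These gaps were wider than any starvation difference of those 3 genes in CWR22Rv1 cells.

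With the mean of each set taken out, PDHB ran most closely with DLAT among the members (Pearson r = 0.912 over 10 arrays) and least with CS (0.324). Over all genes, the 3 with the pattern most like that of PDHB were ISYNA1 (r = 0.994), BOLA3 (0.990) and KPNA2 (0.986). ISYNA1 read 10.42 and 10.20 on starved and 11.37 and 11.33 on control PC3 arrays, and KPNA2 read 14.56 and 14.60 on starved and 15.94 and 16.00 on control PC3 arrays. These correlations share the 3 sets and the starvation contrast among their points.

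The genes around the members were read from lists by role. Their CWR22Rv1 calls have the same limit as those of PDHB and DLAT, since few genes of any kind were called without the starved or the control array of the DMKG experiment. The counts by list, here and below, are to be read beside the shares of all genes called at 48 h. These were 3.74% lower and 3.2% higher in CWR22Rv1 cells, and 10.0% lower and 9.59% higher in PC3 cells. No list was tested as a set. Of the remaining cycle enzymes, 11 of 13 had a value, and 1 was called lower in CWR22Rv1 and 3 in PC3 cells (medians -0.23 and -0.60). IDH2, the NADP-linked mitochondrial isocitrate dehydrogenase, was called in both lines. It read 7.95 and 7.16 on the starved PC3 arrays, against 9.71 and 9.76 on the control arrays, and differed by -2.18 (limma adjusted p = 0.00174). In CWR22Rv1 cells it read 9.83, 9.48 and 8.22 at 0, 24 and 48 h, and 8.46 on the starved and 9.41 on the control array of the DMKG experiment, a fitted difference of -1.28 (limma adjusted p = 0.0362). IDH3G, a regulatory subunit of the NAD-linked enzyme, and SDHC, a membrane anchor of succinate dehydrogenase, were called lower in PC3 cells (-0.67 and -0.65).

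Among the kinases, phosphatases and partner subunits of the complex, 8 of 9 genes had a value. PDK4, a kinase that inactivates E1, was called higher in CWR22Rv1 cells at 2.62 ± 0.39 (SE, limma adjusted p = 0.0117). It read 9.77, 10.84 and 11.47 at 0, 24 and 48 h. In the DMKG experiment it read 11.18 with DMKG, 10.09 without and 6.56 in control cells. In PC3 cells it read 5.61 and 6.23 on the starved and 5.39 and 5.56 on the control arrays and was not called. The difference between the lines, PC3 minus CWR22Rv1, did not pass for PDK4 (-2.18, limma adjusted p = 0.0724). In PC3 cells PDK1 was called higher (0.73), and PDK2 (-0.79) and PDK3 (-1.20) were called lower. PDHX, the E3-binding protein that holds DLD in the complex, was at 0.03 in PC3 and -0.22 in CWR22Rv1 cells and was not called. It is named here after its values were seen.

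E2 works only once lipoate is attached to it. Of 10 genes for lipoate synthesis and attachment 9 had a value, with 2 called lower in CWR22Rv1 cells and 3 lower and 1 higher in PC3 cells. The 1 higher call among 9 genes in PC3 cells is near the share of all genes (9.59%). BOLA3, an iron-sulphur cluster factor needed for lipoate synthesis, was at -0.97 in PC3 and -1.62 in CWR22Rv1 cells, and NDUFAB1, the mitochondrial acyl carrier protein on which the lipoate precursor is built, was at -0.81 in PC3 and -0.79 in CWR22Rv1 cells. All 4 values were called. In PC3 cells GLRX5, another iron-sulphur cluster factor, was called lower (-0.85) and LIPT1, a lipoyl transferase, was called higher (0.78). LIPT1 was among the genes tied on all 3 arrays of the DMKG experiment. The group median was 0.04 in PC3 and -0.16 in CWR22Rv1 cells.

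Among genes of other complexes that use DLD and of their regulators, 4 of 10 measured were called lower in each line and none higher. The medians were -0.53 in PC3 and -0.70 in CWR22Rv1 cells. BCKDK, a regulator and not a subunit, is among the 4 in each line. GLDC, the glycine decarboxylase, was at -1.29 in PC3 and -1.59 in CWR22Rv1 cells. BCKDK, the kinase of the branched-chain ketoacid dehydrogenase, was at -1.10 in PC3 and -1.29 in CWR22Rv1 cells, and BCKDHB, the E1 beta subunit of that dehydrogenase, was at -0.62 in PC3 and -0.75 in CWR22Rv1 cells. All of these were called. GCSH, the lipoylated H protein of glycine cleavage, was called in CWR22Rv1 cells (-0.90) but not in PC3 cells (-0.45). Its difference between the lines did not pass (0.45, limma adjusted p = 0.355). OGDH and DLST stand in this list and among the cycle enzymes, are named here for that reason alone, and were not called in either line.

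For the supply of pyruvate, 10 of 12 genes had a value. MPC2, a subunit of the mitochondrial pyruvate carrier, was called lower in both lines. It read 9.63 and 9.73 on the starved PC3 arrays, against 10.42 and 10.59 on the control arrays (-0.82, limma adjusted p = 0.0182). In CWR22Rv1 cells it read 13.34, 12.77 and 12.24 at 0, 24 and 48 h, and 12.37 on the starved and 13.87 on the control array of the DMKG experiment (-1.30, limma adjusted p = 0.0101). In PC3 cells LDHB, a lactate dehydrogenase subunit (-0.77), and PC, pyruvate carboxylase (-0.67), were called lower and ME1, cytosolic malic enzyme (0.91), was called higher.

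Of 11 cytosolic counterparts and carriers, 3 were called lower in CWR22Rv1 and 5 in PC3 cells, and none higher. SLC25A10, the mitochondrial dicarboxylate carrier, had differences of -4.47 in PC3 and -3.66 in CWR22Rv1 cells. SLC25A1, which exports citrate, was at -1.25 in PC3 and -0.88 in CWR22Rv1 cells, and ACLY, which splits exported citrate into acetyl-CoA, was at -1.61 in PC3 and -1.22 in CWR22Rv1 cells. SLC25A13, an aspartate-glutamate carrier, was called in PC3 cells (-1.40). Of 9 measured genes for thiamine and acetyl-CoA supply, 1 was called at 48 h, higher in PC3 cells, which is near the share of all genes (9.59%). SLC19A2, a thiamine transporter, read 9.40 and 9.64 on starved and 8.79 and 8.45 on control PC3 arrays (0.90, limma adjusted p = 0.0262). Its CWR22Rv1 difference was -0.58 (-0.26 in the time course and -0.90 in the DMKG experiment) and was not called. The difference between the lines passed near the threshold (1.48, limma adjusted p = 0.0423), as for 4.4% of all genes. SLC19A2 was the only gene of the lists around the members that passed this test. The limit stated for CWR22Rv1 calls bears on it too, since the CWR22Rv1 difference enters the test.

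**Figure D4:**
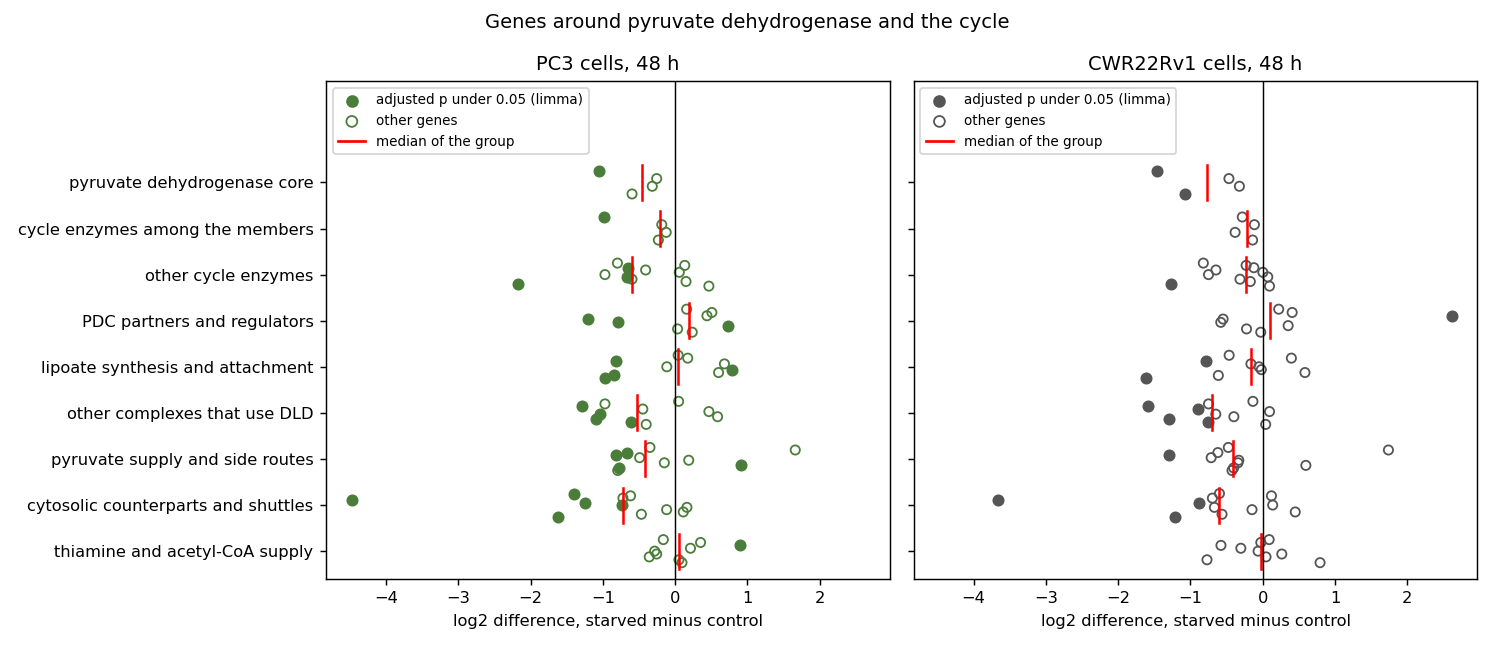
Log2 difference, starved minus control, at 48 h for the members (first 2 groups from the top) and the genes around them, in PC3 cells (left) and CWR22Rv1 cells (right). Filled points were called by limma, open points were not, and red lines are group medians. SLC25A10 is lowest in both lines (-4.47 and -3.66), and PDK4 at 2.62 is the one filled point above 0 in CWR22Rv1 cells.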

How the data were processed

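The deposited log2 values come from the Transcriptome Analysis Console, which the authors ran. Sources used here state neither its version nor how background and normalization were handled. Of 24351 probe sets, 17709 carry 1 gene symbol in the platform annotation. For 20 genes with several probe sets, the one with the highest mean was kept, which gave 17687 genes. Each measured member has 1 probe set.

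One linear model was fitted over all genes with limma 3.58.1 under R 4.3.3. It had an intercept for each set of arrays (PC3 cells and either CWR22Rv1 experiment) and effects of 24 h, of 48 h in each line and of DMKG. It had 3 residual degrees of freedom. They come from the PC3 replicates and from how far the CWR22Rv1 experiments differ in their 48 h effect. Genes were called at a Benjamini-Hochberg adjusted p under 0.05 over all genes. The number of arrays limits the precision. The CWR22Rv1 experiments share the 48 h effect, so the fitted 24 h and DMKG differences can depart from the plain ones. The fit was run on data simulated from its own model, with a shared 48 h effect and no tied values. That run cannot test these assumptions, and no outcome is given here.

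Members and lists were chosen with earlier results of these data known. The genes named are all members, the called genes of each list at 48 h (at most the 4 with the smallest p), and the 3 genes most like each member called in both lines. SUCLG2, PDHX, OGDH and DLST are named outside this rule. Other settings were quantile or median normalization, a filter on dim genes, each line alone, trend and robust limma, and the mean of probe sets. Further ones were no experiment term, separate effects per experiment, a PC3 replicate block, each array left out, and the methods' t-test. The methods name that test without tying it to the arrays, whose fold changes went into gene set enrichment analysis. Here the t-test set starved arrays at 48 h against control arrays without pairing, and pooled the controls of both CWR22Rv1 experiments. Promoter sequences are from RefSeq, on GRCh38.p14, and cover all 9 written members. Figures were drawn with matplotlib 3.10.9 under Python 3.11.15.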

Additional observations from a re-analysis of the deposited data

How the results depend on the processing

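In all, 22 other settings were run, of which 10 leave out an array. In CWR22Rv1 cells at 48 h, 2 members were called lower. The count was 0 with each line fitted alone (limma adjusted p = 0.0747 for PDHB and 0.138 for DLAT), 0 with no experiment term, 1 with the PC3 replicate block (DLAT, limma adjusted p = 0.0562), and 1 by the methods' unadjusted test and 0 after its adjustment. Leaving out an array gave 0 to 2. In PC3 cells the 2 calls became 0 with no experiment term and 0 by the methods' adjusted test, 3 by the unadjusted one, and 1 to 2 without an array. The replicate block is no pairing of samples here, since the deviations of same-numbered PC3 arrays correlated at -0.027. It changed no other member call.

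Some small differences changed sign. PC3 minus CWR22Rv1, DLD was -0.039 after quantile normalization and -0.12 to 0.13 without an array, and CS was -0.21 to 0.024 without an array. MDH2 in PC3 cells was -0.27 to 0.026 without an array, with the highest value without starved replicate 2. With no experiment term SUCLA2 at 24 h was -0.73, and the DMKG differences were -0.37 for PDHA1, 0.15 for DLD, 0.62 for SUCLA2 and -0.46 for SUCLG1. Without an array, the DMKG differences ranged over -0.24 to 0.16 for PDHA1 and -0.16 to 0.60 for DLAT, lowest without the starved array of that experiment. The causes were not tested. Of 384 member values with an array left out, 367 kept their direction and side of the threshold, as did 405 of 424 under other settings.

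Counts over all genes moved more. At 48 h, 566 higher and 662 lower genes in CWR22Rv1 cells became 913 and 997 with trend and robust limma, 311 and 397 with the replicate block, 0 and 0 with the line alone or no experiment term, and down to 1 and 7 without the starved or the control array of the DMKG experiment. In PC3 cells 1697 and 1770 became 244 and 402 with no experiment term. At 24 h, 41 and 50 genes were called by trend and robust limma. Leaving out genes tied across the DMKG experiment, chosen after seeing the data, left 2 members called in each line.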
